A study of Drosophila melanogaster with 6 samples.

Results

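Small heat shock proteins are short chaperones that hold unfolding proteins in a soluble state, and most of them carry an alpha-crystallin domain. They act without ATP and pass their clients to the Hsp70 system for refolding. In flies their genes are switched on by heat, by other stress, by the moulting hormone ecdysone and during ageing, and Hsf, the heat shock transcription factor, drives the heat response. The genes described here are Hsp22, Hsp23, Hsp26, Hsp27, Hsp67Ba, Hsp67Bb, Hsp67Bc and l(2)efl, together with Hsf. They were chosen by name, and all 9 were found among the 17558 genes of the deposited table. Hsp67Bb is listed in the annotation as CG4456 (FBgn0001228) and was matched through its synonym.

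The libraries came from adult male Drosophila melanogaster, taken 12 h after Micrococcus luteus, a Gram-positive bacterium, was injected. Control flies (3 libraries) had the strain label Gal80ts; Tub-Gal4/P{CaryP}attP40, and flies overexpressing the long noncoding RNA CR33942 (3 libraries) had the label Gal80ts; Tub> NANPI, where NANPI is the series' name for CR33942. Both groups carry Gal80ts, a temperature-sensitive repressor that can hold back the Gal4 activator, which the tubulin promoter drives in nearly all tissues. Whether Gal80ts holds Gal4 back depends on the temperature. The strains thus share the driver system and the infection and differ in the transgene and in whatever else separates the crosses. No uninjected flies were analysed here, so the comparison is between infected groups and not with a resting level. The age of the flies, the culture temperature and the number of flies per library are not given in the sources used here, and nothing in them says that the libraries came from separate cultures, so the p-values rest on library spread that could be technical in part. Recovered read totals ran from 17032190 to 19797133 per library. CR33942 stood at 18.7, 19.5 and 19.0 FPKM (fragments per kilobase of exon, scaled by a factor per library) in the controls. In the overexpressing libraries it stood at 553, 589 and 563 FPKM, as the labels have it.

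No difference in these genes passed the main test over all genes. Of the 9, 7 reached an FPKM of at least 1 in 3 or more libraries and were tested, and limma on log2(FPKM + 1), adjusted by Benjamini-Hochberg over 12326 genes, called 0 of the 7 in either direction, where it called 2.22% of all tested genes. At an unadjusted p under 0.05 there were 3, Hsf, l(2)efl and Hsp23, all higher in the overexpressing flies, against 15.7% of all tested genes in either direction. Voom, a limma fit to the recovered reads, called 1 of the 7, Hsf, where it called 3.7% of all genes. The median log2 change of the 7 was 0.12, with 6 above 0 and 1 below, beside a median of 0.002 over all tested genes, of which 50.7% lay above 0. Hsp67Ba was below the filter and Hsp22 was listed at 0.

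Hsf, the regulator, lies on chromosome 2R (dm6, 18130303 to 18134634, minus strand), 577 kb from CR33942 on the same arm. Its level was 17.5, 18.7 and 17.4 FPKM in the control libraries and 24.2, 20.9 and 21.7 FPKM in the overexpressing libraries. The groups did not overlap, and the lowest overexpressing library was replicate 2. The means were 17.9 ± 0.741 and 22.3 ± 1.73 FPKM (SD, n = 3 each), a difference of 24.7%. The log2 change was 0.30 ± 0.07 (SE; 95% interval 0.14 to 0.46; limma adjusted p = 0.0875), and voom gave 0.32 with an adjusted p of 0.0298. Without 1 library at a time the limma adjusted p ran from 0.0544, without overexpressing replicate 2, to 0.255, without control replicate 1. The exact two-sided permutation p was 0.1, and no split of 3 against 3 libraries can give a lower one. The genes within 20 kb of Hsf, a set added after values were seen, numbered 13, of which 9 were tested. Limma called 0 of them and voom called 0, where they called 2.22% and 3.7% of all tested genes. At an unadjusted p under 0.05 there were 2, where 15.7% of all tested genes had one. Log2 changes of the 9 ran from -0.10 to 0.29, the highest close to that of Hsf.

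The gene l(2)efl, named lethal (2) essential for life, encodes an alpha-crystallin protein and lies apart from the others on 2R (23684651 to 23685543, minus strand). It was the most abundant of the 9, at 186, 231 and 191 FPKM in controls and 264, 230.0 and 253 FPKM in overexpressing libraries. Control replicate 2 was above overexpressing replicate 2 by less than 1 FPKM, so the groups overlapped; with scaling to library totals they did not. The means were 202 ± 24.7 and 249 ± 17.2 FPKM (SD, n = 3 each), and the log2 change was 0.30 ± 0.09 (SE; 95% interval 0.08 to 0.52; limma adjusted p = 0.176). Without control replicate 2 the change was 0.40 and the adjusted p 0.0878, the lowest of the 6 fits that leave out 1 library. The exact permutation p was 0.2. Within 20 kb of l(2)efl, a set also added after values were seen, 10 genes were tested. Limma called 0 (lowest adjusted p = 0.0691), voom called 1, and 1 had an unadjusted p under 0.05. Over all tested genes limma called 2.22%, voom called 3.7%, and 15.7% had an unadjusted p under 0.05 by limma. Log2 changes of the 10 ran from -0.41 to 0.07.

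**Figure D1:**
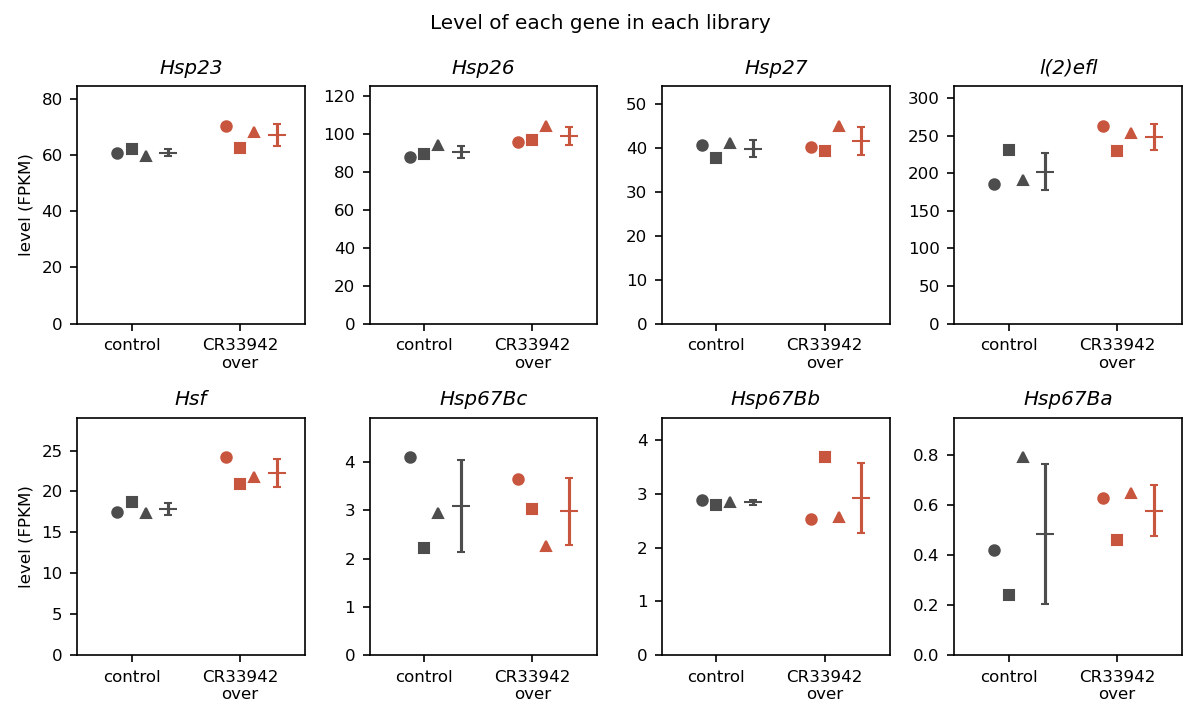
Level in FPKM (y axis, from 0) of 8 of the 9 genes in each library, with control libraries in grey and CR33942-overexpressing libraries in red; circles, squares and triangles are replicates 1, 2 and 3, and the bar beside each group is the mean with its SD (n = 3). Hsf, Hsp23 and Hsp26 show no overlap between the groups, while l(2)efl overlaps through replicate 2 of each group.

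The other 7 genes lie together at 67B on chromosome arm 3L, within 14.2 kb (9371511 to 9385694). Hsp23, Hsp26 and Hsp27, known as heat- and stress-inducible chaperones, were the well expressed members of this cluster. Hsp23 stood at 60.6, 62.2 and 59.7 FPKM in controls and 70.5, 62.6 and 68.3 FPKM in overexpressing libraries, and Hsp26 at 87.9, 89.6 and 94.2 FPKM and 95.6, 96.5 and 104 FPKM. In neither gene did the groups overlap, though the gap was narrow: the lowest overexpressing library of Hsp23, replicate 2, was at 62.6 FPKM against 62.2 FPKM in the highest control. With Hsf that made 3 of 7 tested members whose overexpressing libraries were all above the controls, where 9.06% of tested genes showed this. The log2 changes were 0.14 ± 0.06 for Hsp23 (SE; 95% interval 0.001 to 0.27; limma adjusted p = 0.317) and 0.12 ± 0.06 for Hsp26 (95% interval -0.01 to 0.26; adjusted p = 0.350), so neither passed. In Hsp23 the spread between libraries was 2.03% of the mean in controls and 6.06% in overexpressing flies, beside a counting error of 3.29% at its lowest read number of 925.

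Hsp27, whose product is found in the nucleus as well as in the cytoplasm, stood at 40.6, 37.7 and 41.2 FPKM in controls and 40.3, 39.3 and 45.1 FPKM in overexpressing libraries. These groups overlapped. The log2 change was 0.06 ± 0.07 (SE; 95% interval -0.10 to 0.22; limma adjusted p = 0.753). Without overexpressing replicate 3, the highest library, the change was close to 0.

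Hsp67Bc, a small heat shock protein gene tied to autophagy through the co-chaperone Starvin, was low, at 4.11, 2.22 and 2.95 FPKM in controls and 3.65, 3.03 and 2.27 FPKM in overexpressing libraries. The groups overlapped fully, and the log2 change of -0.03 ± 0.19 (SE; 95% interval -0.48 to 0.42; limma adjusted p = 0.966) leaves room for a change of that size either way. It had 40 to 78 reads per library, a counting error of 15.8% at the lowest number, while the libraries spread by 30.7% of the mean in controls and 23.2% in overexpressing flies.

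Hsp22, Hsp67Bb and Hsp67Ba share exons with other genes, and their listed levels have to be read with that. Hsp22 encodes the mitochondrial small heat shock protein. It was listed at 0 in all 6 libraries, and all 1900 of its exon bases (9372931 to 9374964, plus strand) are also annotated as exons of Hsp67Bb on the same strand. In the table as a whole, 278 of 286 protein-coding genes with every exon base shared with another gene on the same strand were at 0 in every library (97.2%), and so were 62 of 64 whose exon bases are all shared only with a gene on the opposite strand (96.9%). Of 9292 protein-coding genes with no shared exon base, 219 were (2.36%). The level of Hsp22 in these flies cannot be read from this table.

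Hsp67Bb encodes a rhodanese-like protein and not an alpha-crystallin chaperone, and takes its name from its place in the cluster. It has 209 of its 2109 exon bases to itself, so its listed level, 2.88, 2.80 and 2.84 FPKM in controls and 2.53, 3.69 and 2.57 FPKM in overexpressing libraries, may rest on a small part of the gene divided by its whole length. Overexpressing replicate 2 was the highest library of all and the other 2 of its group the lowest, and the log2 change was 0.02 ± 0.13 (SE; 95% interval -0.27 to 0.31; limma adjusted p = 0.966). Without overexpressing replicate 2 it was -0.11 (adjusted p = 0.647). Hsp67Ba shares 1316 of its 1733 exon bases with asRNA:CR43481 on the opposite strand and had 8 to 24 reads per library. It was listed at 0.420, 0.241 and 0.791 FPKM in controls and 0.626, 0.460 and 0.646 FPKM in overexpressing libraries. These values overlapped (exact two-sided permutation p = 0.6, n = 3 each), with the control libraries holding both the lowest and the highest.

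**Figure D2:**
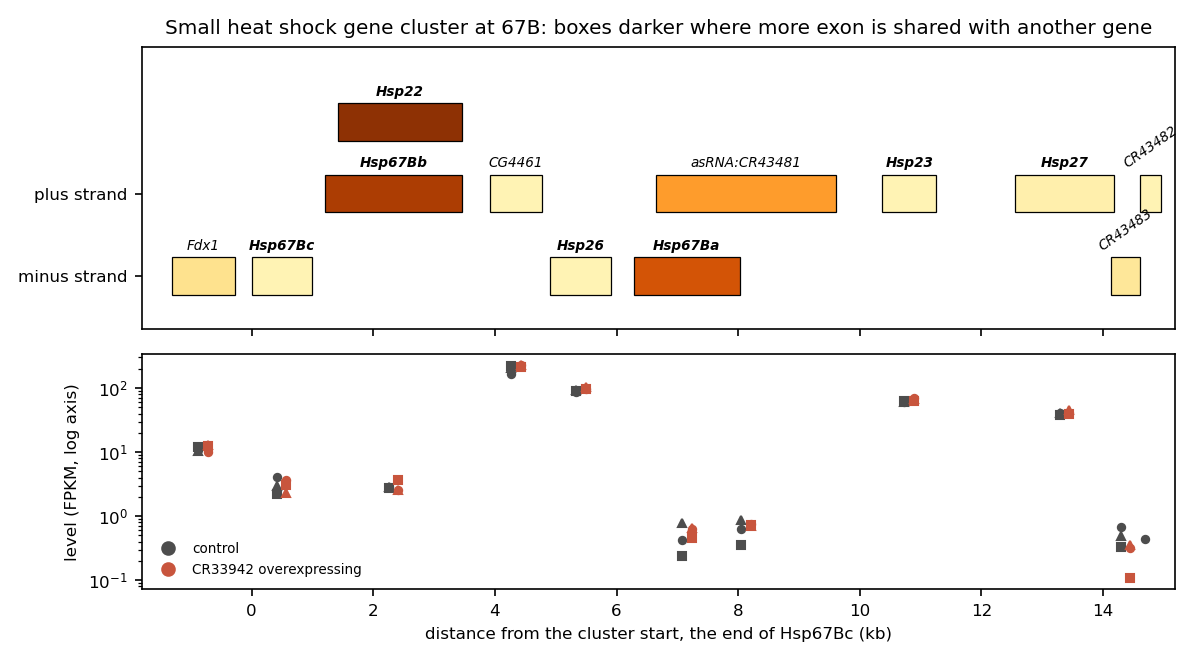
Map of the 67B cluster in kb from its start (x axis): boxes are annotated gene spans by strand, darker where a larger share of the exon bases is shared with another gene, with the 7 genes of the cluster described here in bold; below, each gene's FPKM on a log axis in each library, control in grey and overexpressing in red, with circles, squares and triangles for replicates 1, 2 and 3 and values of 0 not drawn. Hsp22, with all 1900 exon bases shared, has no points, while CG4461, Hsp26, Hsp23 and Hsp27, with few or no shared bases, sit highest. Hsp67Bc, with 0 shared bases, is low all the same, at 2.22 to 4.11 FPKM.

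Within 20 kb of the cluster the table holds 16 further genes, of which 12 were tested. Limma called 0 of them and voom called 0, where they called 2.22% and 3.7% of all tested genes. At an unadjusted p under 0.05 there were 3, where 15.7% of all tested genes had one. These 3, named after their values were seen, did not overlap between the groups. CG4080 and Cpr67B were higher in overexpressing libraries (log2 changes 0.19 and 0.17) and mRRF1 was lower (-0.26). Over all 12 tested neighbours, changes ran from -0.26 to 0.19. The median log2 change of the 12 was 0.09. CG4461, an alpha-crystallin gene between Hsp67Bb and Hsp26, was the most abundant, at 165, 224 and 207 FPKM in controls and 230.1, 214 and 226 FPKM in overexpressing libraries. UGP, which encodes UDP-glucose pyrophosphorylase, was next at 86.6 ± 4.30 and 85.4 ± 2.77 FPKM (SD, n = 3 each).

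Levels per length differed widely within the family. Over the 6 libraries CG7409 was at the top with a mean of 313 FPKM, followed by l(2)efl at 226, CG4461 at 211, CG14207 at 143, Hsp26 at 94.7, Hsp23 at 64.0, Hsp27 at 40.7 and Hsf at 20.1 FPKM. The ranges of l(2)efl and CG4461 overlapped, and l(2)efl was above CG4461 in 5 of 6 libraries. Each other neighbour pair from CG7409 down to Hsf had ranges that did not overlap. The low group of CG43851 (3.78 FPKM), Hsp67Bc (3.04 FPKM) and Hsp67Bb (2.89 FPKM) overlapped in range. CG13133, with a mean of 1.94 FPKM, overlapped Hsp67Bc in range, and Hsp67Ba, at 0.531 FPKM, lay below all of these. Summed over the 7 alpha-crystallin genes among the 9, which leaves out Hsf and Hsp67Bb and counts Hsp22 as 0, the level was 380, 423 and 389 FPKM in controls and 474, 432 and 474 FPKM in overexpressing libraries, of which l(2)efl made up 51.0% and 54.1%. These groups did not overlap (a difference of 15.8% in the mean). The mean sum was 397 and 460 FPKM and the mean of l(2)efl alone 202 and 249 FPKM, so most of the difference lay in that gene. Over all 12 alpha-crystallin genes the sum was 990, 1155 and 1050 FPKM in controls and 1164, 1094 and 1151 FPKM in overexpressing libraries, where the groups overlapped and the means differed by 6.70%.

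**Figure D3:**
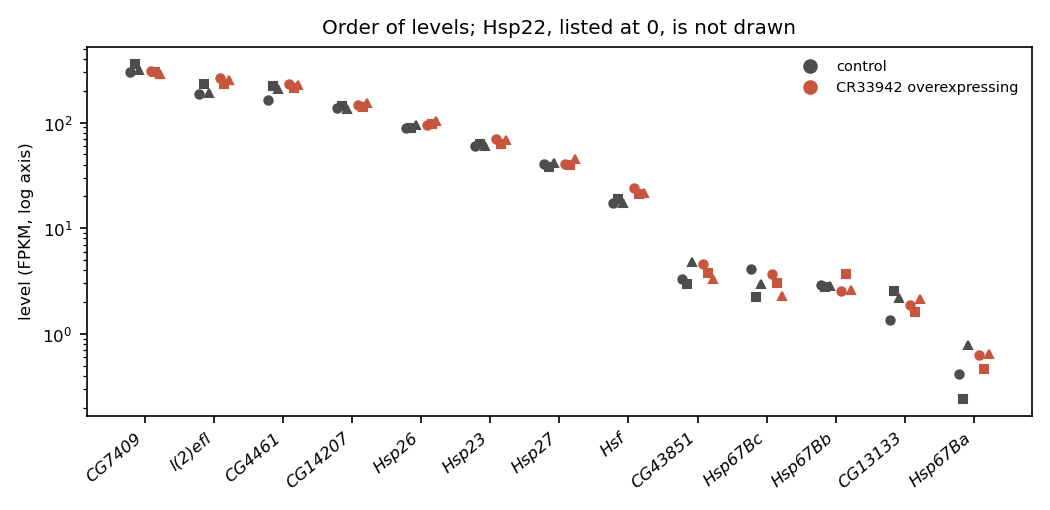
FPKM on a log axis of 13 genes, the alpha-crystallin family with Hsp67Bb and Hsf, in the order of their mean level, with control libraries in grey and overexpressing libraries in red; circles, squares and triangles are replicates 1, 2 and 3. The 8 genes from CG7409 to Hsf lie between 17.4 and 361 FPKM, and the 5 genes to their right lie under 5 FPKM.

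The 5 other alpha-crystallin genes of the fly showed no call. Limma called 0 of 5, voom called 0, and 0 had an unadjusted p under 0.05. Over all tested genes these shares were 2.22%, 3.7% and 15.7%, so counts of 0 among 5 genes say little. The median log2 change was 0.07, with 3 above 0 and 2 below. CG7409 stood at 302, 361 and 312 FPKM in controls and 307, 302 and 291 FPKM in overexpressing libraries, a log2 change of -0.11 ± 0.07 (SE; 95% interval -0.28 to 0.06). CG14207 stood at 138, 143 and 134 FPKM and 146, 141 and 155 FPKM, a change of 0.09 ± 0.06 (95% interval -0.04 to 0.22). CG4461 changed by 0.18 ± 0.11 (95% interval -0.07 to 0.43) and rests on control replicate 1, without which the change was 0.05. CG43851 and CG13133 had 27 to 57 reads per library and changes of 0.07 and -0.06.

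Among 27 other chaperone and co-chaperone genes, of which 24 were tested, limma called 1 higher and 0 lower, and voom called 1 higher and 3 lower. Over all tested genes limma called 2.22% and voom 3.7%. Hsp70Bb, a copy of the inducible Hsp70 gene, rose from 2.17, 3.495 and 3.84 FPKM to 37.9, 40.2 and 36.1 FPKM (log2 change 3.25 ± 0.15 SE, limma adjusted p = 0.0001), and it passed in all 6 fits without 1 library. The other inducible Hsp70 copies are near-identical to it, so reads can be split among them and the listed levels of single copies are uncertain. Of these copies Hsp70Bbb stood at 2.12 ± 0.574 and 1.77 ± 0.646 FPKM (limma adjusted p = 0.741) and Hsp70Bc at 1.91 ± 0.817 and 1.76 ± 0.754 FPKM (0.926). Neither rose with Hsp70Bb, and where the reads listed for Hsp70Bb came from was not tested. Below the filter, Hsp70Ba was listed at 0.507 ± 0.249 and 1.29 ± 0.381 FPKM, Hsp70Ab at 0.442 ± 0.189 and 0.697 ± 0.298 FPKM and Hsp70Aa at 0.256 ± 0.0520 and 0.243 ± 0.0527 FPKM (SD, n = 3 each). Over the 24 the median log2 change was -0.02, with 11 above 0 and 13 below. For 7 of the 24 all overexpressing libraries were below all controls, where 11.7% of tested genes showed this. For 2, Hsp70Bb and STUB1, all were above, where 9.06% of tested genes showed this.

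Hsc70-4, Hsp83, Hsc70-3 and Droj2 were the 4 most abundant of the list by the mean over all 6 libraries, and the other genes named here were chosen after their values were seen. Hsc70-4, the main constitutive Hsp70, stood at 857, 906 and 879 FPKM in controls and 768, 780 and 799 FPKM in overexpressing libraries (log2 change -0.17 ± 0.05 SE, limma adjusted p = 0.164). Hsp83, the fly Hsp90, stood at 348, 385 and 365 FPKM and 288, 314 and 330 FPKM (-0.24 ± 0.07, adjusted p = 0.148). DnaJ-1, an Hsp40 co-chaperone, stood at 108, 124 and 136 FPKM and 87.8, 95.6 and 97.3 FPKM (-0.38 ± 0.09, adjusted p = 0.0867). Droj2, an Hsp40 gene, overlapped between the groups (-0.05, adjusted p = 0.688). Hsc70-3, the Hsp70 of the endoplasmic reticulum, had a change of -0.26 ± 0.05 (adjusted p = 0.0559), and lncRNA:Hsromega, a heat-inducible nuclear RNA, of -0.24 ± 0.06 (adjusted p = 0.124). Of these, none passed by limma, and DnaJ-1, Hsc70-3 and lncRNA:Hsromega passed by voom (adjusted p = 0.0232, 0.0240 and 0.0394). Hsc70Cb and Hop, listed in the annotation as Hsp110 and Stip1, had changes of -0.12 and -0.11 and passed by neither. Hsp68, a heat-inducible Hsp70 relative, stood at 33.7 ± 1.33 and 33.8 ± 1.16 FPKM (SD, n = 3 each), and stv, the gene of Starvin, at 35.6 ± 3.20 and 39.0 ± 5.25 FPKM.

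**Figure D4:**
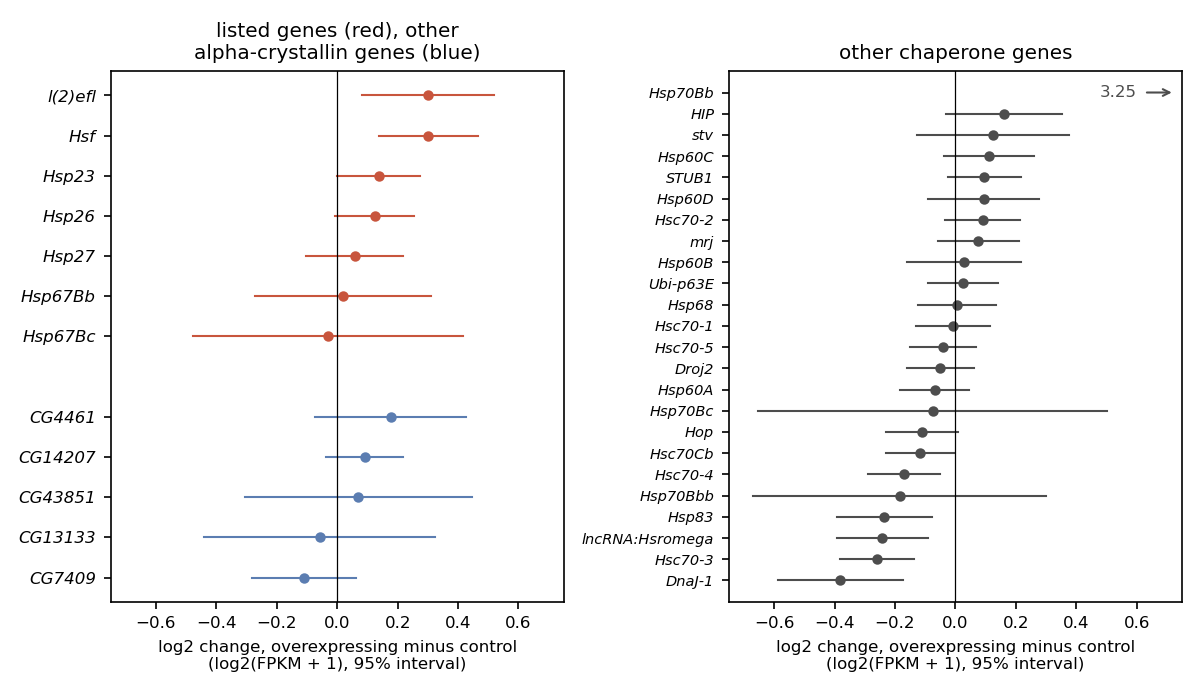
Log2 change with its 95% interval (x axis, overexpressing minus control on log2(FPKM + 1), limma) for the 7 tested genes described here (left, red), the 5 other alpha-crystallin genes (left, blue) and 24 chaperone and co-chaperone genes (right, grey), each sorted by its change. Hsp70Bb lies beyond the axis at 3.25; l(2)efl and Hsf sit at 0.30, and DnaJ-1 is the lowest at -0.38.

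Limma called 1 of 3 genes listed as partners of Hsf or of small heat shock proteins, where it called 2.22% of all tested genes. This was HSPBAP1, named for a human protein that binds a small heat shock protein. It stood at 41.2, 9.10 and 23.6 FPKM in controls and 3.08, 3.23 and 3.11 FPKM in overexpressing libraries (log2 change -2.40 ± 0.44 SE, limma adjusted p = 0.0385). The controls varied widely among themselves, and of the 6 fits without 1 library the call held in 1, without control replicate 2 (adjusted p = 0.00462), with values up to 0.134 without control replicate 3. It was also lost with no filter on low values (adjusted p = 0.0727) and with a replicate block (0.0555). CG5446 stood at 43.7 ± 1.24 and 43.3 ± 4.70 FPKM (SD, n = 3 each), and Hsp83 is given above.

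Ecdysone response genes were listed because Hsp23 and Hsp27 are known to respond to that hormone. The table holds 9 of them and 7 passed the filter. Of the 7, limma called 0, voom called 0, and 0 had an unadjusted p under 0.05. Over all tested genes these shares were 2.22%, 3.7% and 15.7%, so counts of 0 among 7 genes say little. Their log2 changes lay between -0.04 and 0.10, with usp, which encodes the partner of the ecdysone receptor, at 17.7 ± 1.38 and 17.3 ± 0.830 FPKM and Eip75B, an early ecdysone gene, at 6.37 ± 0.279 and 6.58 ± 0.1297 FPKM (SD, n = 3 each). Foxo and JNK stress genes were listed because Hsp22 and l(2)efl are known targets of those pathways. Of 7 tested limma called 1, where it called 2.22% of all tested genes. This was Thor, the gene of the translation inhibitor 4E-BP and a Foxo target. Thor rose from 303, 345 and 300.4 FPKM to 642, 432 and 605 FPKM (log2 change 0.80 ± 0.14 SE, limma adjusted p = 0.0369). Overexpressing replicate 2 was the lowest of its group there too. The call of Thor held without that library (adjusted p = 0.00162), and leaving out any of the other 5 gave adjusted p-values of 0.0931 or more. It was also lost with no filter on low values (0.0676) and with a replicate block (0.098). The gene of puc, a JNK target phosphatase, chosen after its values were seen, stood at 13.6, 13.6 and 13.1 FPKM and 18.6, 13.9 and 17.6 FPKM (adjusted p = 0.243, and 0.0196 without overexpressing replicate 2).

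Overexpressing replicate 2 was the lowest library of its group for Hsf, l(2)efl, Hsp23 and Hsp27, 4 of the 7 tested genes. The same library stood apart from the rest on the second principal component of all tested genes (19.9% of the variance), at 17.1 against -8.28 to 3.13 in the other 5. Without it the log2 changes were 0.34 for Hsf (limma adjusted p = 0.0544), 0.36 for l(2)efl (0.116), 0.19 for Hsp23 (0.126) and 0.10 for Hsp27 (0.587). Leaving out the lowest library of a group raises the change by construction, and for Hsp67Bb, where this library was the highest, the change without it was -0.11. The 3 genes whose profile over the 6 libraries lay nearest to that of l(2)efl, by the largest distance in any library after centring on log2(FPKM + 1), were CenG1A (0.06), CG10802 (0.07) and Marf, the gene of a mitofusin (0.07).

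Markers of tissues and sex described what the libraries held. The 2 male roX RNAs summed to between 81.9 and 92.6 FPKM in controls and between 85.7 and 91.8 FPKM in overexpressing libraries, and 8 testis genes to between 1980 and 2171 FPKM and between 2016 and 2199 FPKM, as the label of male flies calls for. Muscle markers (7 in the table) summed to between 1371 and 1723 FPKM and between 1511 and 1673 FPKM. Of these 7, limma called 0, voom called 0 and 0 had an unadjusted p under 0.05. Over all tested genes limma called 2.22%, voom called 3.7%, and 15.7% had an unadjusted p under 0.05. Fat body markers (5 in the table, none listed at 0) summed to between 163 and 224 FPKM in controls and between 104 and 163 FPKM in overexpressing libraries. All 4 tested were below 0, with 0 called by limma or voom and 2 at an unadjusted p under 0.05, where 15.7% of all tested genes had one. Of 9 ovary and female genes 3 were tested, all 3 below 0. Limma called 1 lower and voom called 1 lower, where they called 2.22% and 3.7% of all tested genes. By limma 2 had an unadjusted p under 0.05, both lower, against 15.7% of all tested genes. The 9 genes summed to between 38.5 and 41.7 FPKM in controls and between 14.3 and 17.9 FPKM in overexpressing libraries. Of 5 haemocyte genes 4 were tested, 2 above 0 and 2 below, and limma called 1 lower, where it called 2.22% of all tested genes. The haemocyte sums lay between 45.8 and 47.7 FPKM in controls and between 40.9 and 49.6 FPKM in overexpressing libraries. The part of these markers in the levels of the small heat shock genes was not tested. In bulk samples, fewer cells of a type and less RNA per cell cannot be told apart.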

How the data were processed

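RNA-seq libraries were poly-A selected and paired-end, per the labels' protocols. Per the labels' protocols, HISAT2 2.0.5 aligned the reads and featureCounts 1.5.0-p3 assigned them to genes. The submitters' processing notes name dm6 as the build. The deposited table gives FPKM per gene and library, made by the authors with a scaling that the labels leave unstated. Multiplied by exon length and a factor per library, the deposited FPKM gave whole reads (tolerance 0.01) for 96.0% of 15918 genes above 0; for the other 642 the length was fitted. Size factors by the median of ratios differed from those factors by at most 0.281%.

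Genes with FPKM of at least 1 in 3 or more of 6 libraries were tested with limma 3.58.1 (R 4.3.3; log2(FPKM + 1), eBayes with trend, two-sided, Benjamini-Hochberg over all tested genes, threshold 0.05), without covariates. The script was tested on simulated data. Voom on recovered reads, other pseudocounts, filters and scalings, a replicate block and leaving out each library were alternatives. Symbols, coordinates (dm6) and exon overlaps came from Ensembl's BDGP6 annotation; 17251 identifiers had a symbol.

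Genes were named by list: the 9 listed genes and CR33942; the other alpha-crystallin genes; called members of the chaperone, ecdysone, and Foxo and JNK lists and otherwise their most abundant; genes within 20 kb of the 67B cluster; and the 3 nearest profiles. In the chaperone list Hip1, a symbol of another gene, was left out. The genes and lists were chosen with earlier results of these data known. A planned search of promoters and a comparison of proteins were not run, as no sequences were used here. Counting errors cover counting alone.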

Additional observations from a re-analysis of the deposited data

How the results depend on the processing

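The count of called genes over the whole table was 274; it was 456 with voom on recovered reads, 110 with replicate number as a replicate block, and 72 to 459 in the fits without 1 library (72 without control replicate 2, 459 without overexpressing replicate 2). Among the small heat shock genes and Hsf, voom called 1 higher, Hsf (log2 change 0.32), and 4 of the chaperone list in place of 1; limma called none of the 7 under the other pseudocounts, filters, scaling to totals, the block or any fit without 1 library. Without 1 library the log2 change ranged from -0.00016 to 0.10 for Hsp27, from -0.11 to 0.091 for Hsp67Bb, from -0.19 to 0.14 for Hsp67Bc, from -0.22 to 0.063 for CG13133 and from -0.039 to 0.23 for CG43851, each crossing 0; the cause was not tested. The number of these genes whose groups do not overlap was 3, where 9.06% of all tested genes had all overexpressing libraries above the controls. It was 4 with scaling to library totals, where l(2)efl joined them and the median of all genes was 0.02. The share of all genes under that scaling is not given here, so the 4 cannot be read as a result about these genes. Same-numbered libraries of the 2 groups did not vary together (r from -0.18 to 0.03 over tested genes, with 0 of 3 control libraries closest to their own number), so the block pairs libraries by number alone. Hsp67Ba had the fewest reads of the small heat shock genes above 0, the spread between libraries exceeded the counting error in Hsp67Bc, and shared exons limit Hsp22, Hsp67Bb and Hsp67Ba.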
